A study of Danio rerio with 60 samples.

Results

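The brush border is the dense carpet of microvilli on the gut-facing side of enterocytes, the absorptive cells of the intestine. Its membrane holds peptidases and saccharidases that finish digestion and transporters that carry the products into the cell. In zebrafish the gut opens and begins to take up nutrients during the first week of larval life. The 6 genes described here are 3 peptidase genes (ANPEP ENSDARG00000036809, ANPEP ENSDARG00000103878 and MEP1B ENSDARG00000040683), the bile acid binding protein gene FABP6 (ENSDARG00000044566), and the amino acid transporter genes SLC3A1 (ENSDARG00000017165) and SLC6A18 (ENSDARG00000068387). They were chosen by name, with their lower levels at the highest raloxifene dose known. They are 6 of 27281 genes in the raloxifene table and of 27488 in the resorcinol table. All 6 were measured in both tables and passed the filter on low values in both. FABP6 acts in the enterocyte's cytosol, and the other 5 encode proteins that mammals carry in the apical membrane.

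Every library was RNA from a pool of 20 whole zebrafish larvae of the AB/Tub background. The larvae stood in buffered E3 medium with a test substance from 72 to 120 hours post-fertilization. The raloxifene doses were 20.1, 2.01, 0.201, 0.0201 and 0.00201 µM, with controls in 0.5% carrier; raloxifene is a drug that acts on estrogen receptors. The resorcinol doses were 405, 40.5, 4.05, 0.405 and 0.0405 µM, with controls in 1% carrier; resorcinol is a phenol. Each of the 12 groups had 5 pools, numbered 1 to 5. The titles of the dosed resorcinol samples carry a short form of raloxifene's name, so these samples were grouped by their description. The labels do not name the carrier, and they give its percentage for the controls but not for the dosed groups. They leave the origin of the 5 replicates of a group unstated, so the p-values rest on a spread between pools that may be technical. Library depth was 7.436 to 10.981 M reads for raloxifene. For resorcinol it was 7.778 to 12.127 M, apart from 405 µM replicate 1 at 30.737 M.

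Levels are given as normalized counts, which are reads per gene divided by 1 factor per library. They carry no correction for gene length, so levels of different genes cannot be compared. In whole larvae, fewer cells of a type and less RNA per cell cannot be told apart. Changes are differences of log2(normalized count + 1) from the carrier control of the same compound, a scale that understates the change of low genes. Same-numbered pools of different doses deviated from their group means together, so pools with 1 number are treated as a pair, and a second fit, which takes the replicate number as a block, stands beside the fit without it.

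The peptidases cut peptides at the brush border. Aminopeptidase N, the product of ANPEP, removes amino acids from the free amino end of peptides. ANPEP ENSDARG00000103878 stood at normalized counts of 808, 1250.0, 966, 2233 and 619 in the control pools 1 to 5. At 20.1 µM raloxifene the same-numbered pools had 241, 682, 434, 949 and 531. All 5 pairs were lower, from 3.34-fold in pair 1 to 1.17-fold in pair 5, while the ranges of the groups overlapped. A drop in 5 of 5 pairs was seen in 4.72% of all genes tested. The mean of 5 pools was 1175 ± 635 for controls and 567 ± 267 for 20.1 µM (SD), a log2 change of -1.04. In each of the 5 replicate numbers the 20.1 µM pool was the lowest of the 6 groups, as was the case for 0.374% of all genes tested. FABP6, SLC3A1 and SLC6A18 were also lowest there in 5 of 5, MEP1B ENSDARG00000040683 in 4 and ANPEP ENSDARG00000036809 in 2. The genes were chosen with their lower levels at this dose known, so these shares give scale only and no test.

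MEP1B encodes meprin beta, a metalloprotease that in mammals is anchored in the brush border membrane of gut and kidney. MEP1B ENSDARG00000040683 had control levels of 222, 254, 211, 365 and 128, and levels of 79.7, 178, 110, 216 and 129 at 20.1 µM. Pools 1 to 4 were lower than their controls by 1.43-fold to 2.77-fold, and pool 5 was level with its control. The log2 change was -0.73.

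ANPEP ENSDARG00000036809 did not share this pattern. Its levels were 25.5, 85.2, 13.9, 40.4 and 12.4 in controls and 23.9, 49.2, 15.7, 38.9 and 10.7 at 20.1 µM. The groups overlapped, at 10.7 to 49.2 for 20.1 µM against 12.4 to 85.2 for controls, and 4 of 5 pairs were lower. The log2 change was -0.19, with a 95% interval of -0.77 to 0.39 in the fit with the replicate block. Pair 2 had the largest difference, at 1.72-fold lower, and pair 3 was higher.

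FABP6, the ileal bile acid binding protein, carries bile acids through the cytosol of the enterocytes that reabsorb them. Control pools 1 to 5 had normalized counts of 5459, 9579, 4603, 2933 and 3848, and the 20.1 µM pools had 2320.2, 3912, 1914, 1880.0 and 3295. Pairs 1 to 3 were lower by 2.35-fold to 2.45-fold, pair 4 by 1.56-fold and pair 5 by 1.17-fold. The mean of 5 pools was 5284 ± 2575 for controls and 2664 ± 901 for 20.1 µM (SD), a log2 change of -0.93. SLC10A2, the apical transporter that brings bile acids into these cells in mammals, is set beside it for that role: it had 140.4 ± 60.2 in controls and 108 ± 52.5 at 20.1 µM.

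SLC3A1 encodes the heavy subunit of the apical transporter of cystine and basic amino acids. It stood at 70.9, 103, 100.2, 108 and 53.2 in controls and at 31.9, 47.0, 54.9, 40.6 and 45.1 at 20.1 µM. Of the 20.1 µM pools, 4 lay below every control pool, and pool 3 lay just above control pool 5. The level went from 87.0 ± 23.8 to 43.9 ± 8.48, a log2 change of -0.94. The gene of its light subunit, SLC7A9, had 70.5 ± 32.4 in controls and 43.2 ± 7.79 at 20.1 µM. The groups of SLC7A9 overlapped, at 35.6 to 54.8 for 20.1 µM against 33.7 to 112 for controls, and neither fit called it.

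SLC6A18 encodes a neutral amino acid transporter best known from the kidney of mammals. Its levels were 70.9, 104.0, 88.3, 100.2 and 55.0 in controls and 52.3, 52.5, 38.3, 64.6 and 40.4 at 20.1 µM. All 5 pairs were lower, by 1.35-fold to 2.27-fold, and pool 4 alone lay inside the control range. The log2 change was -0.73, from 83.7 ± 20.6 to 49.6 ± 10.6.

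**Figure D1:**
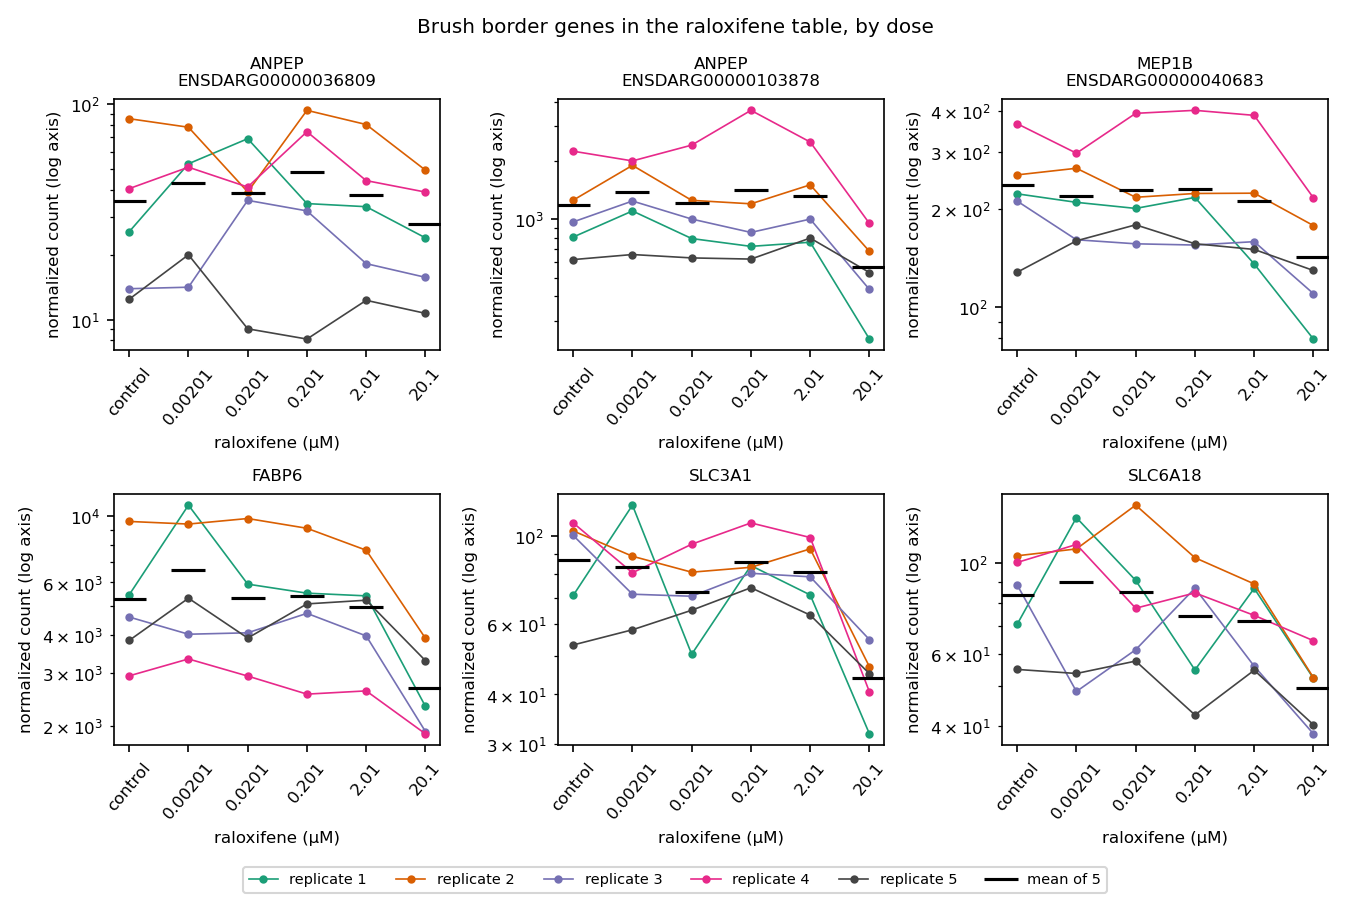
Normalized counts (log axis) of the 6 genes in the 30 raloxifene libraries, by dose in µM. Coloured lines join pools with the same replicate number and black bars are means of 5. Most lines drop between 2.01 and 20.1 µM, less so in ANPEP ENSDARG00000036809, where the groups overlap; against the control, replicate 5 (dark grey) drops least in ANPEP ENSDARG00000103878, FABP6 and SLC3A1, and in MEP1B ENSDARG00000040683 it stays level.

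These 20.1 µM values chose the genes, so they describe the pattern and no test is read from them. In the fit without the replicate block, limma called 0 of the 6 genes at an adjusted p under 0.05. It called 0.0936% of all genes tested. With the block it called 5 of 6, all lower, against 1.26% of all genes tested in either direction and 0.385% lower. The call of SLC6A18 was lost without replicate 2, 3, 4 or 5 and with quantile normalization, and that of MEP1B ENSDARG00000040683 without replicate 3, which left 3 calls. The median change of the 6 genes was -0.83, beside -0.01 over all genes. Pair 5 had the smallest drop in ANPEP ENSDARG00000103878, FABP6 and SLC3A1, and in MEP1B ENSDARG00000040683 it did not drop. With the block and without replicate 5, the log2 change was -1.12 in SLC3A1 and -0.92 in MEP1B ENSDARG00000040683.

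The lower raloxifene doses are measurements that did not choose the genes, although they share the control pools with the 20.1 µM contrast. Without the replicate block, limma called 0 of the 6 genes at each of the 4 doses, none had an unadjusted p under 0.05, and percent called over all genes was 0%. With the block it again called 0 of 6, against 0.0208% of all genes at 2.01 µM, 0.0156% at 0.201 µM, 0% at 0.0201 µM and 0.0987% at 0.00201 µM. An F test over the 4 doses with the block gave adjusted p = 0.731 or more for each gene (limma), and it called 0.0208% of all genes.

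At 2.01 µM, the next dose below the top one, ANPEP ENSDARG00000103878 had 760, 1499, 999, 2490 and 798 in pools 1 to 5. Of these, 4 were above their controls. FABP6 had 5414, 7684, 3983, 2613 and 5237, and its log2 change was -0.05 with a 95% interval of -0.35 to 0.25 (block). SLC3A1 had 71.1, 92.7, 78.9, 99.0 and 63.3, a log2 change of -0.07 with an interval of -0.41 to 0.27. The largest of the 6 changes at this dose was that of SLC6A18, -0.20 with an interval of -0.58 to 0.17.

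At the remaining doses the largest changes were in either direction. ANPEP ENSDARG00000036809 was 0.40 higher on the log2 scale at 0.201 µM (interval -0.19 to 0.98) and 0.37 higher at 0.00201 µM (-0.21 to 0.96). SLC3A1 was at -0.24 at 0.0201 µM (-0.58 to 0.10). FABP6 at 0.00201 µM came closest to a call, at 0.29 with an adjusted p of 0.389 (limma with the block), and its pool 1 had 10854 against 5459 in control pool 1. SLC6A18 was below its same-numbered control in 5 of 5 pairs at 0.201 µM, by 1.01-fold to 1.29-fold, which 5.9% of all genes also were.

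**Figure D2:**
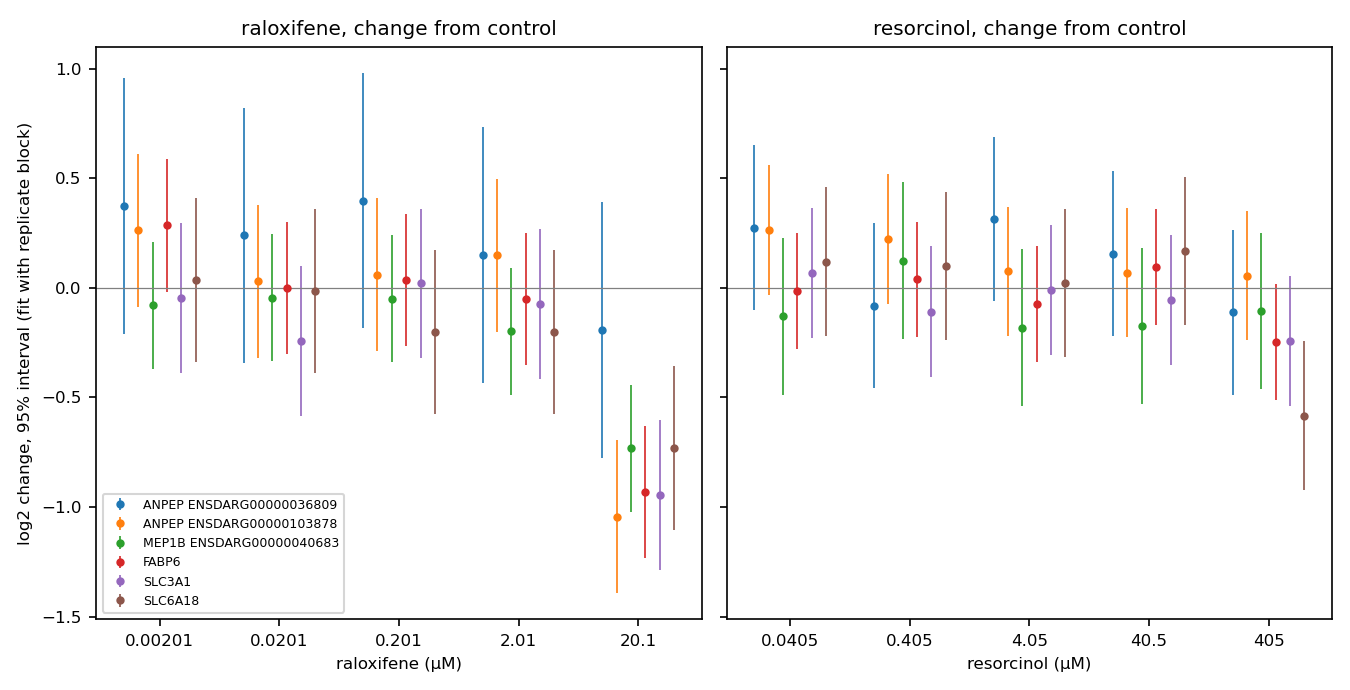
Log2 changes from the carrier control for the 6 genes, with 95% intervals from the fit with the replicate block, at 5 raloxifene doses (left) and 5 resorcinol doses (right) in µM. At 20.1 µM raloxifene 5 intervals lie below 0, at the lower doses all include 0, and on the resorcinol side the interval of SLC6A18 at 405 µM is the one that leaves out 0.

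Resorcinol was tested in other larvae with their own controls. Limma called 0 of the 6 genes at each of the 5 doses, with or without the replicate block. At 405 µM it called 0.0306% of all genes without the block and 0.327% with it, at 40.5 µM 0.00511% and 0.0664%, and at the 3 lower doses 0% in either fit. The F test over the 5 doses called 0 of 6 as well, against 0.0409% of all genes without the block and 0.225% with it. Without the block 0 of the 6 genes had an unadjusted p under 0.05 at any dose. With the block SLC6A18 at 405 µM did, at an adjusted p of 0.162 (limma), and edgeR and DESeq2 also called 0.

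SLC6A18 had the largest change at 405 µM. It had 58.5, 42.2, 84.7, 65.6 and 79.3 in control pools 1 to 5, and 48.8, 37.2, 64.2, 26.1 and 45.3 at 405 µM. All 5 pairs were lower, as in 6.44% of all genes, and the groups overlapped. In 5 of 5 replicate numbers the 405 µM pool was the lowest of the 6 groups, which held for 0.0409% of all genes, or 8 of 19583. The mean of 5 pools was 66.0 ± 17.0 for controls and 44.3 ± 14.2 for 405 µM (SD). The log2 change was -0.58 with a 95% interval of -0.92 to -0.24 in the fit with the block. It did not pass over all genes: the adjusted p was 0.162 with the block and 1.00 without it (limma), and 0.176 in the F test over the 5 doses with the block. Pair 4 contributed most, at -1.30, and without replicate 4 the change was -0.40 with the block.

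The transporter subunit SLC3A1 had 90.8, 85.4, 108.0, 41.7 and 139 in controls and 58.0, 81.4, 101.7, 46.3 and 93.8 at 405 µM, a log2 change of -0.24 (interval -0.54 to 0.06). FABP6 had 4440, 3260, 2412, 2752 and 3477 in controls and 2744, 2613, 2249, 2757 and 3182 at 405 µM, a change of -0.25 (-0.51 to 0.02). In both genes 4 of 5 pairs were lower, and pair 1 had the largest drop. The 405 µM library of pair 1 is the deepest of the table, at 30.737 M reads, and the part of depth in these values was not tested.

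The peptidases at 405 µM stood near their controls. ANPEP ENSDARG00000103878 had 948, 1885, 1404, 538 and 2864 in controls and 973, 1777, 1973, 547 and 2514 at 405 µM, a log2 change of 0.06 (-0.24 to 0.35). MEP1B ENSDARG00000040683 went from 238 ± 109 to 235 ± 151, a change of -0.11 (-0.46 to 0.25). ANPEP ENSDARG00000036809 went from 39.9 ± 18.8 to 35.1 ± 10.7, a change of -0.11 (-0.49 to 0.26). The levels of the 2 tables were normalized separately and are not compared here.

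Over the 4 lower resorcinol doses the 6 genes ranged from -0.18 (MEP1B ENSDARG00000040683 at 4.05 µM) to 0.31 (ANPEP ENSDARG00000036809 at 4.05 µM). With the block every one of their 95% intervals included 0, and the bounds ran from -0.54 to 0.69. SLC6A18 at these doses had mean levels of 66.8 to 76.7, beside 66.0 in controls.

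**Figure D3:**
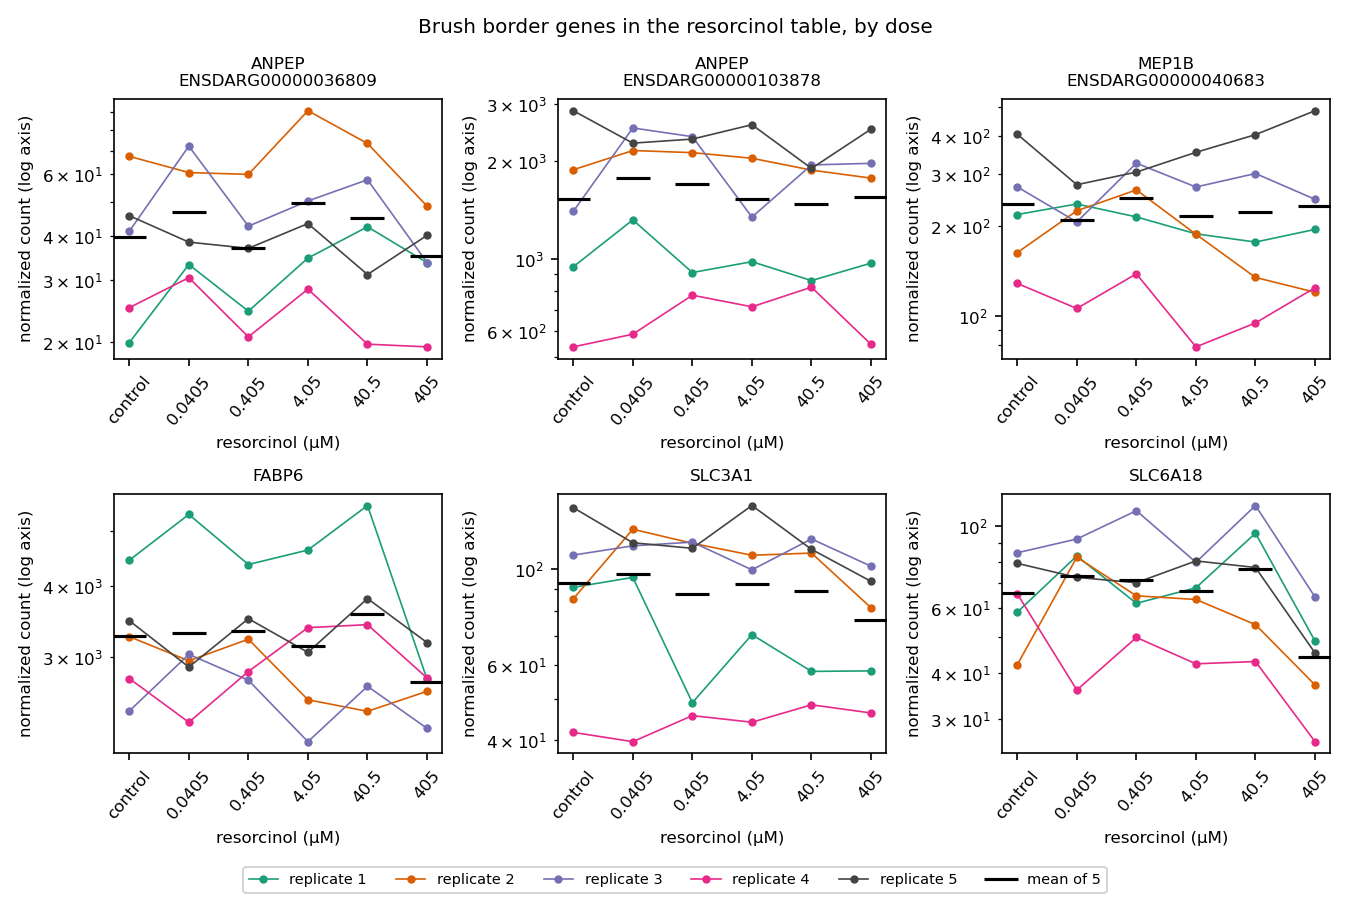
Normalized counts (log axis) of the 6 genes in the 30 resorcinol libraries, by dose in µM. Coloured lines join pools with the same replicate number and black bars are means of 5. Replicate 4 is the lowest line at every dose in ANPEP ENSDARG00000103878, and in SLC6A18 all 5 lines end at their lowest point at 405 µM.

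The replicate number set more of the spread of these genes than dose did, except in SLC3A1 of the raloxifene table. In the raloxifene table it accounted for 79.0% of the variance of log2 levels in ANPEP ENSDARG00000036809, 64.6% in MEP1B ENSDARG00000040683, 61.8% in ANPEP ENSDARG00000103878 and 58.5% in FABP6. It accounted for 45.0% in SLC6A18 and 17.4% in SLC3A1, beside 77.2% over all genes tested. The shares over all genes, in both tables, come from variance summed over genes. Genes with a large spread weigh most in them, and they are not the share of a typical gene. The dose group accounted for 57.2% in SLC3A1 and 4.49% in ANPEP ENSDARG00000036809, with the other 4 genes from 21.7% to 31.4% and all genes at 5.53%. These shares include the 20.1 µM pools that chose the genes.

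In the resorcinol table the replicate number took 53.0% in SLC6A18 to 90.5% in ANPEP ENSDARG00000103878, with all genes at 69.1%. The dose group took 27.2% in SLC6A18 and 1.66% to 9.67% in the other 5, with all genes at 6.83%. Without the top dose, the mean level of ANPEP ENSDARG00000103878 over 5 groups was 687 in replicate 4 and 2396 in replicate 5, a 3.49-fold spread. The labels do not say what a replicate number marks.

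**Figure D4:**
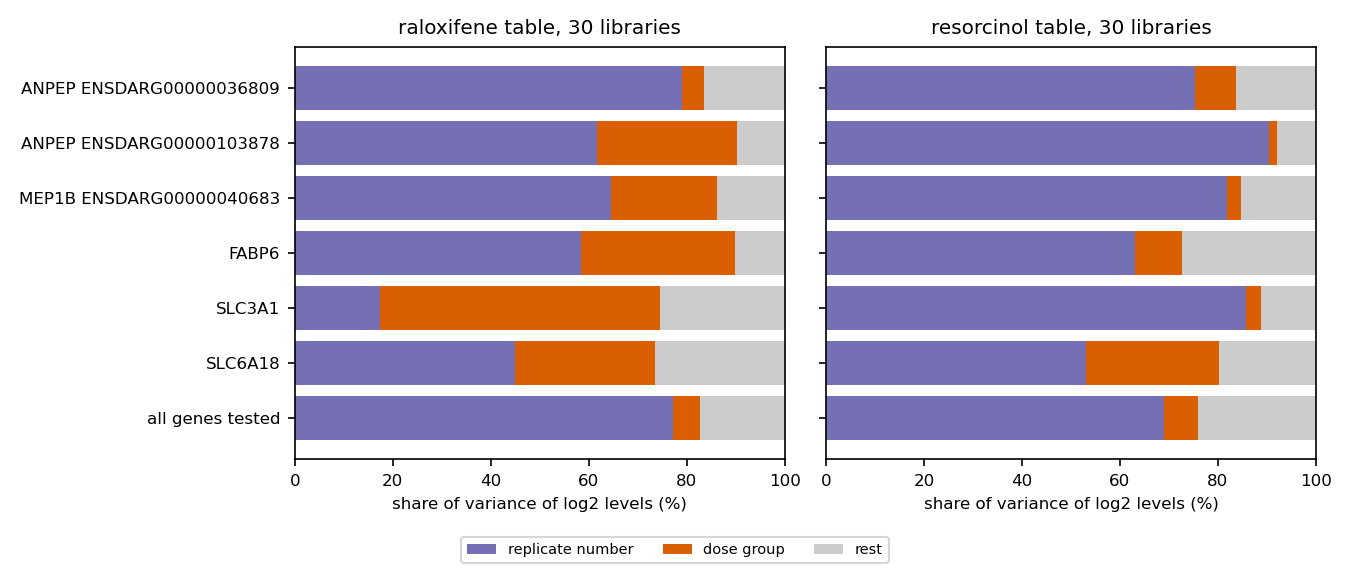
Share of the variance of log2 levels (%, 30 libraries per table) that goes with the replicate number, the dose group and the rest, for each of the 6 genes and for the variance summed over all genes tested. Dose takes the largest part in SLC3A1 of the raloxifene table, at 57.2%, and a visible part in SLC6A18 of the resorcinol table, at 27.2%.

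FABP6 followed a different order across replicate numbers from ANPEP ENSDARG00000103878. In the raloxifene table, without the top dose, its mean was highest in replicate 2 (9108) and lowest in replicate 4 (2872), whereas ANPEP ENSDARG00000103878 was highest in replicate 4 (2548) and lowest in replicate 5 (665). ANPEP ENSDARG00000036809 (75.0) and SLC6A18 (108) were, like FABP6, highest in replicate 2. In the resorcinol table FABP6 was highest in replicate 1 (4863), where ANPEP ENSDARG00000103878 had 1005 against 2396 in replicate 5. Over the 30 raloxifene libraries, which share replicate numbers and doses, the 10 pairs of genes without FABP6 correlated with a median r of 0.61 and the 5 pairs with FABP6 with a median of 0.34. For resorcinol these medians were 0.64 and -0.10. Without the 20.1 µM pools the raloxifene medians were 0.59 without FABP6 and 0.05 with it. Once each replicate number's and dose's mean was removed, they were 0.20 and 0.31 for raloxifene, the other way round, and 0.21 and 0.12 for resorcinol.

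A pair of further genes share symbols with the peptidases, and the division of reads between duplicated genes is uncertain. MEP1B ENSDARG00000037533 had 22.1 ± 17.4 in raloxifene controls and 10.5 ± 8.16 at 20.1 µM. ANPEP ENSDARG00000097285 had 33.5 ± 17.6 and 35.8 ± 19.5. In 4 of 5 pairs MEP1B ENSDARG00000037533 was lower at 20.1 µM, with log2 differences from -2.17 to 0.26, and its pool 5 was near the floor at 1.19. At 405 µM resorcinol ANPEP ENSDARG00000097285 was higher than its control in 5 of 5 pairs, at 26.1 to 81.4 against 10.7 to 63.0, as 6.93% of all genes were. MEP1B ENSDARG00000037533 had 57.4 ± 34.0 there against 37.9 ± 38.1 in controls, with 3 pairs higher and 2 lower.

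Lists of other genes of the intestine and of neighbouring organs were set beside the 6 genes. Genes were placed by symbol, and a list's name does not hold for every gene in it. Examples are abcc2 in the basolateral list, CNDP2 and cndp1 among the hydrolases, and chia.1 and chia.2 in lipid absorption. The bile acid list holds liver genes such as CYP7A1, and its slc51a is also in the basolateral list. The kidney proximal tubule list shares SLC5A12 with the nutrient transporters and CUBN with the lysosome-rich enterocytes. At 20.1 µM raloxifene, with the replicate block, 0 of 23 other brush border hydrolase genes passed in either direction. Of these 17 were below 0, and their median was -0.34, while 52.5% of all genes were below 0. Of 24 other nutrient transporter genes of the brush border 0 passed, 16 were below 0 and the median was -0.24. In the fits that left out 1 replicate number, 1 hydrolase gene fell without replicate 5 and 1 transporter gene without replicate 1 or 5. Medians lay from -0.17 to 0.08 for the basolateral transporters, bile acid handling, lipid absorption, microvillus structure and intestinal transcription factors, in which 0 genes passed, apart from 1 basolateral transporter gene that rose without replicate 3 and 1 after quantile normalization. Villin, the microvillus actin bundler (VIL1), had 611 ± 314 in controls and 434 ± 160 at 20.1 µM. It did not pass, and its groups overlapped, at 267 to 644 for 20.1 µM against 351 to 1152 for controls.

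Genes in the lists named for other intestinal cell types did not all go down. The libraries are whole larvae, so the lists do not show which cells or organs the RNA came from. Of 15 genes of lysosome-rich enterocytes, the protein-absorbing cells of the zebrafish gut, 10 were below 0 and the median was -0.09, beside 52.5% below 0 over all genes. None of these 10 passed, among them the endocytic genes lrp2b at -0.69 and dab2 ENSDARG00000031761 at -0.41 (adjusted p = 0.0892 and 0.169, limma with the block). Of the others 3 rose with the block, a fit that called 1.26% of all genes at this dose. These were the cathepsin genes CTSB, 1.42-fold higher (adjusted p = 1.62e-07), and ctsla, 1.28-fold higher (adjusted p = 0.00823), and the endocytic adaptor DAB2 ENSDARG00000053091, 1.33-fold higher (adjusted p = 0.00862; limma with the block for all 3). Of 6 goblet cell genes 2 passed and 2 were below 0, with a median of 0.26. AGR2, which helps fold mucins, rose 2.50-fold from 75.8 ± 21.4 to 189 ± 42.3, and the mucin gene muc5.1 rose 1.47-fold. Without replicate 5 the fit with the block left 1 higher lysosome-rich enterocyte gene, without replicate 1 it added 2 lower ones, and without replicate 1, 2, 4 or 5 it left 1 higher goblet cell gene. Of 12 enteroendocrine genes 0 passed and 8 were below 0, with a median of -0.05. Summed levels of the goblet cell list were higher in 5 of 5 pairs, at 749 ± 228 against 554 ± 223, and those of the basolateral transporters at 3649.8 ± 587 against 3313 ± 614. Those of the enteroendocrine list were lower in 5 of 5 pairs, as were those of the intestinal transcription factors, at 2584 ± 505 against 2972 ± 844 and 599 ± 173 against 689 ± 184. Lower doses, which share these control pools, had the same shifts in part. Enteroendocrine sums were lower in 5 of 5 pairs at 2.01, 0.201 and 0.00201 µM, at 2511 ± 505, 2395 ± 416 and 2403 ± 444. At 0.0201 µM 3 of 5 were lower. Basolateral sums were higher in 5 of 5 at 2.01 µM (3663 ± 836), and goblet cell sums at 0.201 µM (657 ± 243). Resorcinol pools, with their own controls, shifted in part too. Goblet cell sums were higher in 5 of 5 pairs at 405, 4.05 and 0.0405 µM. Their means were 590 ± 181, 652 ± 154 and 650 ± 159, against 570 ± 181 in controls. Basolateral sums were higher in 5 of 5 at 405 µM, at 4244 ± 847 against 3746 ± 658. Lysosome-rich enterocyte sums were higher in 5 of 5 at 0.405 and 0.0405 µM. Enteroendocrine and transcription factor sums had no such shift at any resorcinol dose. How often sums of other genes shift in 5 of 5 pairs was not tested.

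Genes of neighbouring organs were read in the same libraries. Exocrine pancreas genes had a median of 0.75 at 20.1 µM raloxifene, with 1 of 21 below 0, and 1 of 21 passed, beside 1.26% of all genes. This was ctrl, a chymotrypsin-like protease gene, which rose 1.99-fold with the block (adjusted p = 0.0327, limma). At 405 µM resorcinol their median was 0.95 with 0 of 22 below 0. There CEL ENSDARG00000017490, the bile salt activated lipase, rose 2.18-fold with the block. These calls depended on single replicate numbers: 0 pancreas genes passed at 20.1 µM without replicate 2, 3 or 4, and 0 at 405 µM without replicate 1 or 2. The summed pancreas level ranged from 2749 to 27914 in raloxifene controls and from 3867 to 64224 at 20.1 µM, and its part in the changes of the 6 genes was not tested.

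The kidney proximal tubule also expresses several of these transporters in mammals. Its 11 other genes had a median of 0.03 at 20.1 µM raloxifene, 0 passed (1 fell without replicate 1), and their summed level was 3278 ± 187 in controls and 3289 ± 154 at 20.1 µM. Of 17 liver genes 10 were below 0 and 1 passed, the urate oxidase gene uox, at -0.99, and 0 passed without replicate 1, 2, 3 or 4 or in edgeR with the block. Without the block 0 genes of any list passed at either top dose.

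At 405 µM resorcinol the 6 genes had a median of -0.18, while 8 of the 10 other lists of intestinal and bile acid genes had a median above 0. The exceptions were the intestinal transcription factors at -0.08, with 9 of 15 genes below 0, and the lysosome-rich enterocytes at -0.07, with 9 of 15. Over all genes 49.8% were below 0. The brush border hydrolases had a median of 0.25 with 4 of 22 below 0. The nutrient transporters had 0.14 with 6 of 24 below 0, and lipid absorption 0.37 with 3 of 21 below 0. With the block none of the 10 lists held a gene that passed, and the difference from the 6 genes was not tested. At 2.01 µM raloxifene the hydrolases had 3 of 23 genes below 0 and a median of 0.12, beside 50.8% of all genes below 0.

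**Figure D5:**
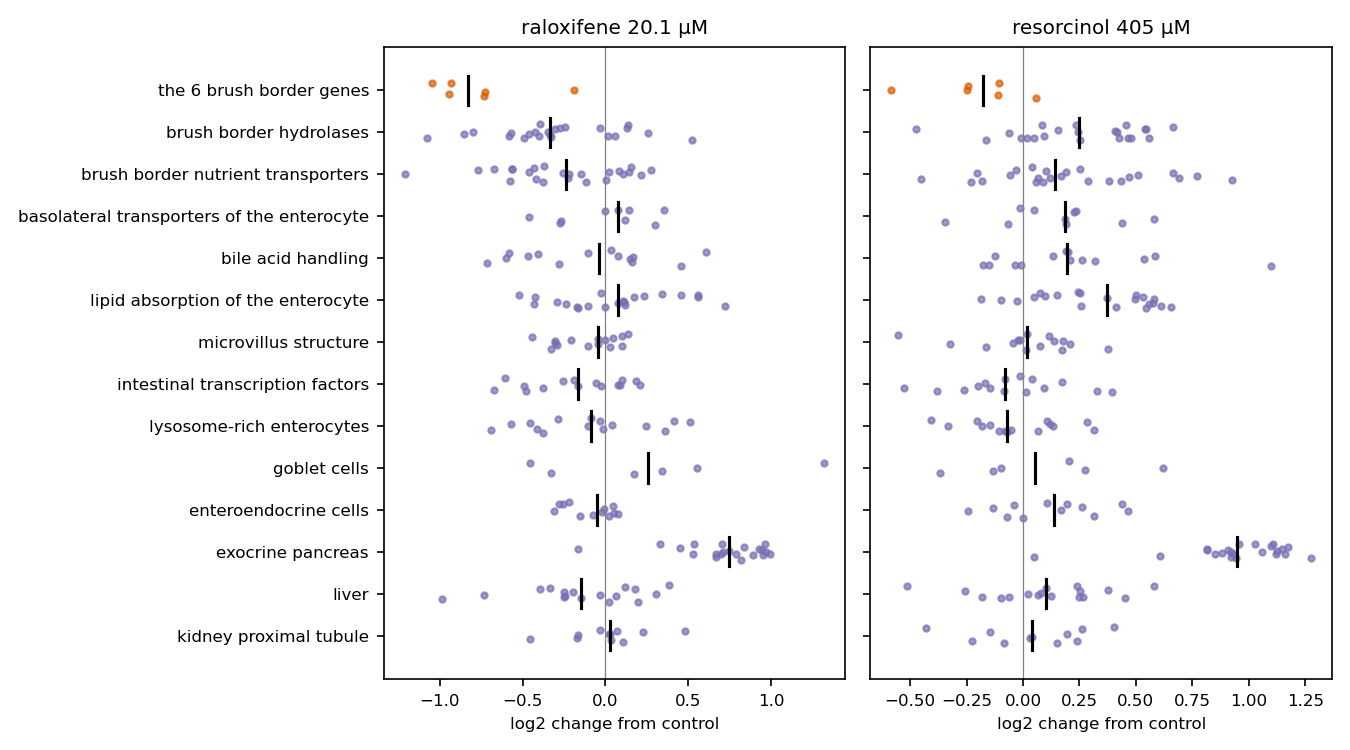
Log2 change of each tested gene at 20.1 µM raloxifene (left) and 405 µM resorcinol (right), for the 6 brush border genes (orange) and for the other genes of each list (purple); black bars are medians, and vertical jitter has no meaning. The hydrolase and nutrient transporter medians are -0.34 and -0.24 on the left and 0.25 and 0.14 on the right, and the exocrine pancreas is high on both sides.

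Across 19052 other genes tested in both tables, those closest to the 6 genes were ranked by the smaller of both tables' correlations with the mean of the 6 genes' standardized levels, over 30 libraries per table. SERPINB1 ENSDARG00000055416 came first (r = 0.915 for raloxifene and 0.905 for resorcinol). XPNPEP2, an aminopeptidase gene of the hydrolase list, came second (0.897 and 0.911). It was followed by zgc:158846, eps8l3b, dab2 ENSDARG00000031761 and lrp2b, the last an endocytic receptor gene of the megalin family. The libraries share replicate numbers, and the 20.1 µM pools that chose the 6 genes are among them, so the ranking favours genes that are low in those pools and the values describe likeness only.

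With each replicate number's mean removed, dab2 ENSDARG00000031761 came first (0.826 and 0.801), followed by krt92, zgc:158846, ITGB6, ms4a17a.17 and si:dkey-28n18.9. This ranking too includes the 20.1 µM and 405 µM pools, so the genes' levels there are part of what ranked them and no test is read from them. At 405 µM resorcinol dab2 ENSDARG00000031761 had 186 ± 49.0 against 249 ± 68.7 in controls, lower in 5 of 5 pairs. The other DAB2 gene, ENSDARG00000053091, rose at 20.1 µM raloxifene, while dab2 ENSDARG00000031761 had a log2 change of -0.41.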

How the data were processed

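The submitters' processing notes name cutadapt, STAR, DESeq2 and the build GRCz11. How reads were counted, on which strand and with which annotation is not given in the sources used here. For each compound the authors deposited a table of signal values, which are gene read counts scaled by a library's size factor. Whole reads were recovered for 100.0% of values at a tolerance of 0.1. A reference name table gave symbols for 24960 of 27281 and 25126 of 27488 identifiers.

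The design assumed either raw counts or normalized values. For these values limma 3.58.1 (R 4.3.3) with an intensity trend was fitted to log2(normalized count + 1), over the 30 libraries of a table with 6 group means. Genes needed a normalized count of 10 in 5 libraries (19241 and 19583 genes), and p-values were Benjamini-Hochberg adjusted, with calls under 0.05. Intervals are 95%. The labels number the replicates without saying what is shared; all 75 same-number pairs per table correlated above 0.1 in their deviations from group means (lowest r 0.344 and 0.194), so the number was taken as a pairing. No pair of libraries of a group agreed within sampling noise. edgeR 4.0.16 and DESeq2 1.42.0 on the recovered reads were alternatives. The fits were tested on simulated data.

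The 6 genes and all lists were chosen with earlier results of these data known. Named besides the 6 genes were list genes that passed at a top dose, at most 4 per list, and the 6 genes most alike by each ranking. SLC7A9, SLC10A2, VIL1 and the same-symbol genes were added for their role. Sequences and coordinates were not used here.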

Additional observations from a re-analysis of the deposited data

Results flagged for a closer look

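In 72 groups of 5 pools, 4 held a pool whose gap to its nearest neighbour exceeded 0.71 of the group's range; chance flags about 1 group in 20. Of these, 3 were replicate 4 of the raloxifene table. ANPEP ENSDARG00000103878 at 0.201 µM had a normalized count of 3624 in that pool and 622 to 1198 in the other 4. MEP1B ENSDARG00000040683 had 393.2 at 0.0201 µM (others 156 to 217) and 401.6 at 0.201 µM (others 155 to 223). Replicate 4 was also the highest control pool for both genes. The fourth was FABP6 at 0.0405 µM resorcinol, with 5343 in replicate 1 and 2305 to 3034 in the others.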

How the results depend on the processing

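At 20.1 µM raloxifene the count of the 6 genes called was 0 without the replicate block, 5 with the replicate block, 5 with edgeR and the block, and 1 with DESeq2 (SLC3A1). It stayed at 0 with a pseudocount of 10, with other level filters, with quantile normalization, with edgeR without the block and with a fit of only the dose group and its control. Leaving out 1 library gave 0 to 1 calls, the 1 being SLC3A1 without control replicate 5 (adjusted p = 0.0247, limma). With the block, leaving out 1 replicate number gave 3 to 5 calls, the 3 without replicate 3, where MEP1B ENSDARG00000040683 had an adjusted p of 0.0613. The call of SLC6A18 with the block was lost without replicate 2, 3, 4 or 5 (adjusted p = 0.182, 0.134, 0.130 and 0.0868) and with quantile normalization (0.0663). Quantile normalization and a pseudocount of 10 with the block were chosen after seeing the data. At every other dose of either compound 0 of the 6 genes passed under each alternative without the block.

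The direction turned only for small changes, in the fits that left out 1 library or, with the block, 1 replicate number. The ranges were -0.46 to 0.21 for ANPEP ENSDARG00000036809 at 20.1 µM raloxifene and -0.32 to 0.11 at 405 µM resorcinol. For ANPEP ENSDARG00000103878 they were -0.26 to 0.38 at 405 µM resorcinol (-0.053 to 0.12 with the block), -0.10 to 0.51 at 0.405 µM and -0.056 to 0.62 at 0.0405 µM. For MEP1B ENSDARG00000040683 they were -0.42 to 0.12 at 405 µM and -0.44 to 0.082 at 40.5 µM. The cause was not tested. Low levels and 5 pools a group limit what could be seen: the block lowered the median standard error over all genes from 0.304 to 0.155 for raloxifene and from 0.277 to 0.154 for resorcinol.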
